A study of Mus musculus with 4 samples.

Results

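Cck-dominant cells are enteroendocrine cells of the gut lining in which the RNA of cholecystokinin (Cck) outweighs that of the other hormones considered. They were chosen by their counts. Only barcodes with 500 or more genes and no more than 20% mitochondrial UMIs (molecular tags that each mark a single captured RNA) were kept. Cck had to have the most UMIs among Sst, Gip, Ghrl, Gcg, Nts and Cck and to hold at least 2% of the UMIs of the cell, with Ins1 and Ins2 together under 1%. The rule found 1333 such cells among 11574 kept cells of 3 libraries: 340 at embryonic day 17.5 (E17.5), 267 in adults and 726 in irradiated adults. No cell of the E12.5 library met it (0 of 4226 kept cells, which allows a share of up to 0.0710%).

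The study profiled sorted epithelial cells from the intestine of Bmi1-GFP mice, in which green fluorescent protein reports the Bmi1 locus, with the droplet-based 10x Chromium 3' kit (version 3 chemistry). Each group was 1 library, and every group carried the reporter: embryos at E12.5 and at E17.5, adults without irradiation and adults after irradiation. For E17.5 the labels name the small intestine. The radiation dose, the time after it, the animals' number, age and sex, and the sorting gate are not given in the sources used here. Because each group is a lone library, nothing could be tested against replicates, and every difference below is between 2 libraries, and intervals (95%) cover counting error only.

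Cholecystokinin is released by cells classically called I cells, mostly in the duodenum and jejunum, when fat and protein arrive, and it contracts the gallbladder, stimulates pancreatic enzyme secretion and promotes satiety. Secretin (Sct), the hormone of the classical S cell, drives bicarbonate secretion from the pancreas and is often made in the same cells. Enteroendocrine cells arise from crypt progenitors through the transcription factor Neurog3 and are renewed throughout life, and a cell can make several hormones.

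The 2 genes that mark these cells lie on different chromosomes. Cck (ENSMUSG00000032532) is at chr9:121489824-121495694 on the minus strand and Sct (ENSMUSG00000038580) at chr7:141278330-141279133 on the minus strand (GRCm38, GENCODE M21), both protein-coding. The 250 bases before each start site, from RefSeq on GRCm38.p6, are shown because the 2 RNAs were together in nearly all of these cells at levels that ranged widely. They are chr9:121495695-121495944 for Cck and chr7:141279134-141279383 for Sct, printed 5′ to 3′ along the minus strand. Capitals mark the E box CANNTG, the motif read by Neurod1 and other basic helix-loop-helix factors, and CGTCA on either strand, the core of the cyclic AMP response element.
Cck: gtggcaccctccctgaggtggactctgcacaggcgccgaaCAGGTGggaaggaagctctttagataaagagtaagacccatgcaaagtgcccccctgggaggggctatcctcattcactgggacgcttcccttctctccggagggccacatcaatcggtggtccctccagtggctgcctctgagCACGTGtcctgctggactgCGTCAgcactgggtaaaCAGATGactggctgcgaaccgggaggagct
Sct: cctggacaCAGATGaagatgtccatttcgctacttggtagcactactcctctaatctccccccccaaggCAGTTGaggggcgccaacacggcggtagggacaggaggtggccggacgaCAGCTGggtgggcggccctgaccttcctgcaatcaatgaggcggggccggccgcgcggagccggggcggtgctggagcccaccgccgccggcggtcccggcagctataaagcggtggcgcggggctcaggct
Each window held 3 matches to CANNTG, which was present in 66.2% of all 32851 RefSeq promoter windows of the same length. CGTCA was matched once before Cck and not before Sct, against 17.8% of all windows. The Sct window also held GGGCGG, the GC box read by Sp1, at 2 places (32.7% of all windows) and TATAAA (12.4%), neither of which was in the Cck window. Both strands were searched for each of the 4 motifs, no 2 matches in these windows overlapped, and a match describes letters only.

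The cells held enteroendocrine markers, and of the goblet markers chiefly Tff3 and Agr2. All 12 enteroendocrine markers, among them Chga, Chgb, Neurod1 and Pcsk1, had UMIs in every library, at a summed level of 11091.5 CPM (UMIs per 1000000 of the total) at E17.5, 19445 CPM in the adult and 25529.7 CPM after irradiation. The comparison pool was the kept cells in which none of the 6 hormones led with at least 2% of UMIs (below, cells led by no hormone). It also holds cells whose leading hormone was under 2% or tied, and cells with Ins1 and Ins2 together at 1% or more. The pool is thus not free of endocrine cells. There the enteroendocrine markers summed to 2192, 11062 and 21786 CPM. Goblet markers, among them Tff3 and Agr2, summed to 13260.0, 11472 and 13619.6 CPM in Cck-dominant cells against 1367, 4628 and 29076 CPM in that pool, and their part in the results was not tested. Tff3 and Agr2 were the highest of them in each library. Single goblet markers ranged from 0.276 to 7983 CPM at E17.5, 1.19 to 6013 CPM in the adult and 68.9 to 6240 CPM after irradiation. Muc2 was lower than in that pool in each library. Immune markers summed to between 0.827 and 13.8 CPM, and islet markers to between 21.7 and 130 CPM. Neurog3, the progenitor factor, had 4 UMIs at E17.5 and 0 in both adult libraries, which allows up to 0.892 CPM in the adult. Median depth was 9787.5 UMIs per cell at E17.5, 13645 in the adult and 13941.5 after irradiation, and cells under 5000 UMIs made up 2.65%, 29.6% and 24.0% of the members. Of the members, 24, 14 and 57 had doublet scores among the highest of their library. The libraries shared 6 to 8 cell barcodes in pairs, and 1 shared barcode was Cck-dominant in both the E17.5 and the irradiated library.

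Cck held a median of 9.90% of a cell's UMIs at E17.5, 10.9% in the adult and 10.6% after irradiation, and at most 27.4%, 24.2% and 30.4%. These values chose the cells and are a description. Just inside the 2% limit (2 to 3%) were 19, 28 and 64 cells, and just outside it (1 to 2%, with Cck still leading) were 23, 38 and 66. The irradiated cells near the limit were shallow, with medians of 1777.5 UMIs inside it and 1435 outside it.

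Sct, which the rule did not use, held a median of 8.37% of UMIs at E17.5, 8.68% in the adult and 7.06% after irradiation. Thinned to 2000 UMIs, which left out 2, 16 and 124 shallower cells, 99.7%, 100% and 99.8% of the cells had a Sct UMI (337 of 338, 251 of 251 and 601 of 602). Presence alone says little in the adult: a Sct UMI was also found in 94.4% of adult and 88.7% of irradiated tuft reference cells, a chemosensory type that should lack it, with median depths of 4300 and 8552 UMIs. The level set them apart, since Sct was 0.346% and 0.358% of UMIs in those tuft cells against 9.77% and 8.04% of the summed UMIs of Cck-dominant cells. At E17.5, where mesenchymal cells were the reference, 14.1% of those had a Sct UMI after thinning.

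**Figure D1:**
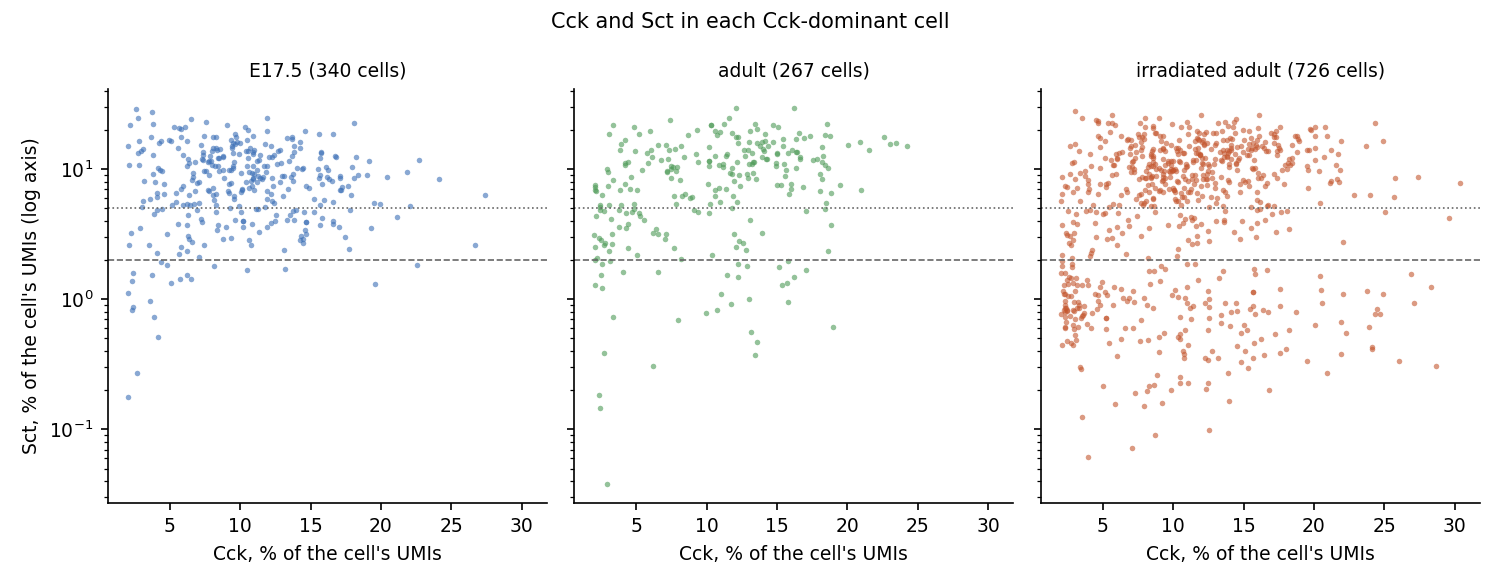
Each point is 1 Cck-dominant cell, with Cck (x axis) and Sct (y axis, log scale) as percent of the cell's UMIs, in the E17.5, adult and irradiated adult libraries; the dashed line is 2% Sct and the dotted line 5%. Most cells lie above 5% Sct in each library, and the irradiated library has the most cells under 2% (218 of 726).

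Cck-dominant cells made up 7.39% of kept cells at E17.5 (340 of 4602, exact Clopper-Pearson interval 6.65 to 8.18%), 7.05% in the adult (267 of 3788, 6.25 to 7.91%) and 22.8% after irradiation (726 of 3184, 21.4 to 24.3%). Among cells led by any of the 6 hormones they were 33.9% of 1004, 16.8% of 1592 and 47.0% of 1544. The irradiated share was above the adult share in both denominators, and the counting intervals did not overlap. The intervals of the E17.5 and adult shares of kept cells overlapped. Gip-dominant cells numbered 127, 1070 and 492, Ghrl-dominant cells 197, 29 and 27 and Nts-dominant cells 148, 88 and 60. The adult library was the shallowest, with a median of 3699.5 UMIs per kept cell against 11499 at E17.5 and 8786 after irradiation. Over cells with at least 5000 UMIs the shares were 8.20%, 13.0% and 25.9%. A share depends on the sort and on which cells survive it, and the part of either was not tested.

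Most Cck-dominant cells held a second hormone of the 6 at 0.5% of UMIs or more. Ghrl, the gene of ghrelin, the hunger hormone, was the leading second hormone in 39.1% of E17.5 cells, 30.3% of adult cells and 31.1% of irradiated cells. Gcg, the proglucagon gene that gives GLP-1 in the gut, was second in 10%, 13.5% and 20.9%. Nts, neurotensin, was second in 14.4%, 15.4% and 11.2%. Gip, the glucose-dependent insulinotropic hormone, was second in 15%, 10.9% and 8.26%. No second hormone reached 0.5% in 21.2%, 30.0% and 27.1%. Sst, somatostatin, was second in 1, 0 and 10 cells.

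RNA of further gut peptides was found in these cells. Pyy, peptide YY, was at 2727 CPM at E17.5, 865 CPM in the adult and 1294 CPM after irradiation. Tac1, the substance P precursor, was at 445, 44.9 and 265 CPM. Tph1, which starts serotonin synthesis, was at 298, 387 and 498 CPM, with no 2-fold step between stages or with irradiation. Gast, gastrin, a close relative of Cck in sequence, was at 667 CPM at E17.5 and at 31.2 and 49.2 CPM in the adult libraries, and was singled out after its values were seen. In the cells led by no hormone Gast was at 52.2, 0.605 and 0.489 CPM.

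Against the other hormone-dominant cells of the same library, Cck-dominant cells had 22 genes at least 2-fold higher in each of the 3 libraries (0.437% of 5036 genes compared) and 15 at least 2-fold lower in each (0.298%). The rule chose the cells on this contrast, so these counts and values are a description. Pzp, a secreted protease inhibitor of the alpha-2-macroglobulin family, was at 113 CPM at E17.5, 376 CPM in the adult and 388 CPM after irradiation in Cck-dominant cells, against 14.1, 9.93 and 9.90 CPM in the others. Agr2, an endoplasmic reticulum protein disulphide isomerase known from goblet cells, was at 4718, 6013 and 4967 CPM against 1022, 193 and 574 CPM, and its relative Agr3 at 99.3, 493 and 503 CPM against 17.7, 25.9 and 52.3 CPM. In cells led by no hormone, the pool that would hold goblet cells, Agr2 was at 367, 921 and 2580 CPM. Tff3, another goblet peptide, was at 7983, 5252 and 6240 CPM in Cck-dominant cells against 509, 1039 and 6066 CPM in that pool, while the goblet mucin Muc2 was at 0.276, 3.27 and 120 CPM against 11.7, 78.8 and 973 CPM.

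Onecut3, a homeodomain transcription factor, was among the genes that stood at least 2-fold higher in Cck-dominant cells in all 3 libraries, at 283, 284 and 236 CPM against 78.0, 27.8 and 19.9 CPM. Rgs2, an inhibitor of G protein signalling, was at 346, 650 and 678 CPM against 67.1, 66.9 and 123 CPM. The lowest relative to the others were Iapp (amylin), the homeobox factor Hhex, Asic5, an acid-sensing family ion channel, and Rgs4. Hhex stood at 6.07, 0.892 and 3.70 CPM against 193, 137 and 251 CPM. Hhex and Iapp are known for somatostatin (D) cells, which are among the others. Isl1, a factor shared by many enteroendocrine types, was at 272, 307 and 196 CPM against 578, 935 and 573 CPM.

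**Figure D2:**
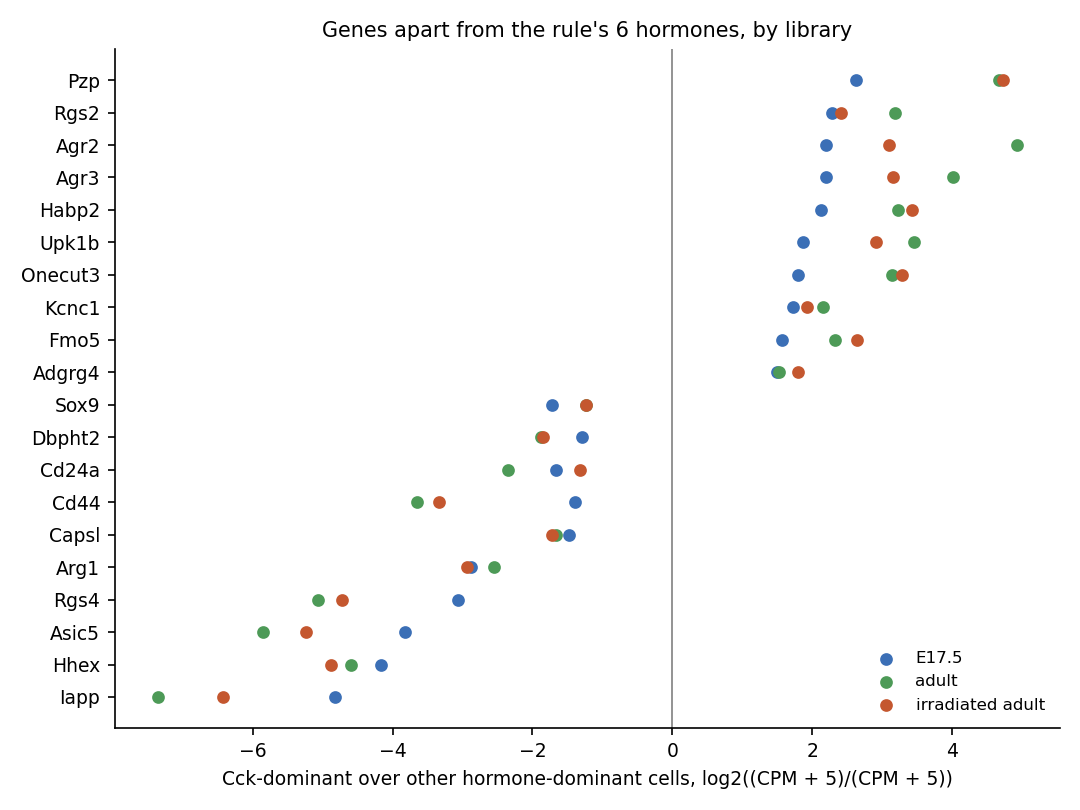
Log2 ratio of summed Cck-dominant over other hormone-dominant cells on the log2(CPM + 5) scale (x axis) for the 10 highest and 10 lowest genes by the smallest difference over the 3 libraries, with 1 point per library. Pzp, Agr2 and Onecut3 are right of 0 and Iapp, Hhex and Sox9 left of it in all 3 libraries, as the selection requires.

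Cck-dominant cells were also set against Nts-, Gip- and Gcg-dominant cells one by one, and not against Ghrl- or Sst-dominant cells. At least 2-fold in the same direction in all 3 libraries were 13 genes higher and 24 lower against Nts-dominant cells (0.277% and 0.511% of 4698), 67 and 82 against Gip-dominant cells (1.36% and 1.66% of 4932), and 43 and 6 against Gcg-dominant cells (0.919% and 0.128% of 4678), of which the adult library had only 11. Sct was at 92007, 71097 and 88170.1 CPM in Nts-dominant cells, against 85449, 97676 and 80378 CPM in Cck-dominant cells and 53771, 14926 and 8997 CPM in Gip-dominant cells. Gip- and Nts-dominant cells of the adult libraries were shallow, with medians of 2591 and 2092 UMIs in the adult and 3884.5 and 2690.0 after irradiation. Agr2 was at 2905, 1551 and 1578 CPM in Nts-dominant cells and at 160, 119 and 354 CPM in Gip-dominant cells.

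Adult Cck-dominant cells had less RNA of fetal growth genes than those of E17.5. They had more of the fatty acid receptors Ffar1 and Ffar3, the nutrient transporters Slc5a1 and Slc15a1, and several antigen-presentation genes. At least 2-fold higher in the adult were 250 of 5649 genes with a mean of at least 20 CPM (4.43%), and at least 2-fold lower were 226 (4%), on the log2((CPM + 5)/(CPM + 5)) scale. Of the 21 fetal growth genes listed, 10 passed the level filter and were compared, and 8 of these were lower, with a list median of -3.26 on the log2 scale against -0.06 over all genes compared. With the 3 genes that had no adult UMI set at their bounds the list median was -4.43, and over the alternatives it lay between -5.33 with a pseudocount of 1 CPM and -1.40 with no filter on low values. A gene passes the level filter more easily through the stage where it is high, so the members compared are not the whole list.

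The RNA of the imprinted gene Meg3 was at 960 CPM at E17.5, 2.68 CPM in the adult and 5.28 CPM after irradiation, with UMIs in 88.5%, 3.00% and 3.44% of cells. Mdk, the heparin-binding growth factor midkine, was at 266, 0.297 and 0.845 CPM, a ratio of 896 between E17.5 and adult that rests on 1 adult UMI (interval 160 to 35431). H19, an imprinted non-coding RNA, was at 166 CPM at E17.5 and had no UMI in either adult library, which is at least 186-fold lower in the adult with a floor of 3 counts per library. The mRNA-binding proteins Igf2bp1, Igf2bp2 and Igf2bp3 were at 44.4, 45.0 and 48.0 CPM at E17.5 and at 0, 14.0 and 2.38 CPM in the adult, and the log2 ratio of Igf2bp2 was -0.94 with a pseudocount of 20 CPM. Peg10 and Dlk1 made up the rest, and Peg3 and Cdkn1c, also imprinted, were not past 2-fold, at 587 and 713 CPM and at 264 and 337 CPM at E17.5 and in the adult.

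Among 10 compared of 28 listed nutrient-sensing genes, 4 were at least 2-fold higher in the adult and none lower. The list median was 0.11 against -0.06 over all genes compared. Slc5a1 and Ffar3 were under 20 CPM at E17.5 and passed the level filter through the adult, so the members compared are not the whole list. Ffar1, the receptor for long-chain fatty acids that triggers Cck release, was at 103 CPM at E17.5, 325 CPM in the adult and 306 CPM after irradiation. Slc5a1, the sodium-glucose cotransporter SGLT1, was at 15.4, 69.9 and 48.8 CPM. Slc15a1, the peptide transporter PEPT1, was at 20.7, 77.9 and 86.9 CPM. Absorptive cells carry both transporters: enterocyte markers, all 8 with UMIs, summed to 2369 CPM at E17.5 and 4084 CPM in the adult in Cck-dominant cells and to 6736 and 9113 CPM in cells led by no hormone. In cells led by no hormone Slc5a1 was at 53.7 and 56.8 CPM and Slc15a1 at 6.10 and 40.9 CPM, and the part of enterocyte RNA was not tested. Ffar3, a receptor for short-chain fatty acids, was at 12.4, 39.8 and 38.7 CPM, and with a pseudocount of 20 CPM its log2 ratio was 0.88. Ffar2, Ffar4 and Gpr119, the other lipid receptors compared, differed by less than 2-fold, with log2 ratios of -0.32, -0.17 and 0.13.

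Of 8 compared of 20 listed interferon and MHC genes, 4 were higher and none lower in the adult (list median 1.20). B2m, the invariant chain of class I molecules, was at 50.2, 229 and 257 CPM. The immunoproteasome subunits Psmb8 and Psmb9 were at 25.1 and 12.4 CPM at E17.5 and at 122 and 49.9 CPM in the adult. Psmb9 thus passed the level filter through the adult. H2-T23, a non-classical class I gene, was at 37.5, 121 and 170 CPM. The classical H2-K1 and H2-D1 differed less, with log2 ratios of 0.39 and 0.43.

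Of 28 compared of 38 listed lineage transcription factors, 5 were higher in the adult and 2 lower. Neurod1, which mice need to form secretin and cholecystokinin cells, was at 407, 1053 and 871 CPM. Klf4, a factor of post-mitotic epithelium, was at 83.8, 464 and 441 CPM, and Nr4a2, an orphan nuclear receptor induced by activity, at 69.8, 262 and 257 CPM. Sox4 and the glucose-responsive factor Mlxipl (ChREBP) were the other 2 that were higher, with log2 ratios of 1.15 and 1.34. Pax4 was at 83.8, 12.5 and 11.6 CPM and Pdx1, a factor of the duodenum and pancreas, at 37.8, 12.2 and 8.87 CPM, and the log2 ratio of Pdx1 was -0.84 with a pseudocount of 20 CPM. Pax6, Isl1, Insm1, Nkx2-2, Rfx6 and Etv1 differed by less than 2-fold.

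The secretory machinery differed in parts. Pcsk1, the convertase that cleaves pro-hormones, was at 228 CPM at E17.5, 534 CPM in the adult and 469 CPM after irradiation. Tpst1, a tyrosylprotein sulphotransferase of the kind that sulphates cholecystokinin, was at 32.3, 84.7 and 106 CPM. Ctsl, cathepsin L, was at 328, 81.8 and 118 CPM and Qpct, glutaminyl cyclase, at 607, 135 and 138 CPM. These 4 were the maturation genes past 2-fold of 11 compared, and Cpe, Pam and Scg5 were among those that were not. Scg2, secretogranin II, was at 1895, 4858 and 4172 CPM and was the 1 granin of 7 past 2-fold. None of 18 compared exocytosis genes was past 2-fold, with Syt7 nearest at a log2 ratio of 0.97 and Snap25 at 0.83. Of 8 compared other peptides, Pyy, Tac1, Iapp and Ucn3 were lower in the adult and none higher.

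**Figure D3:**
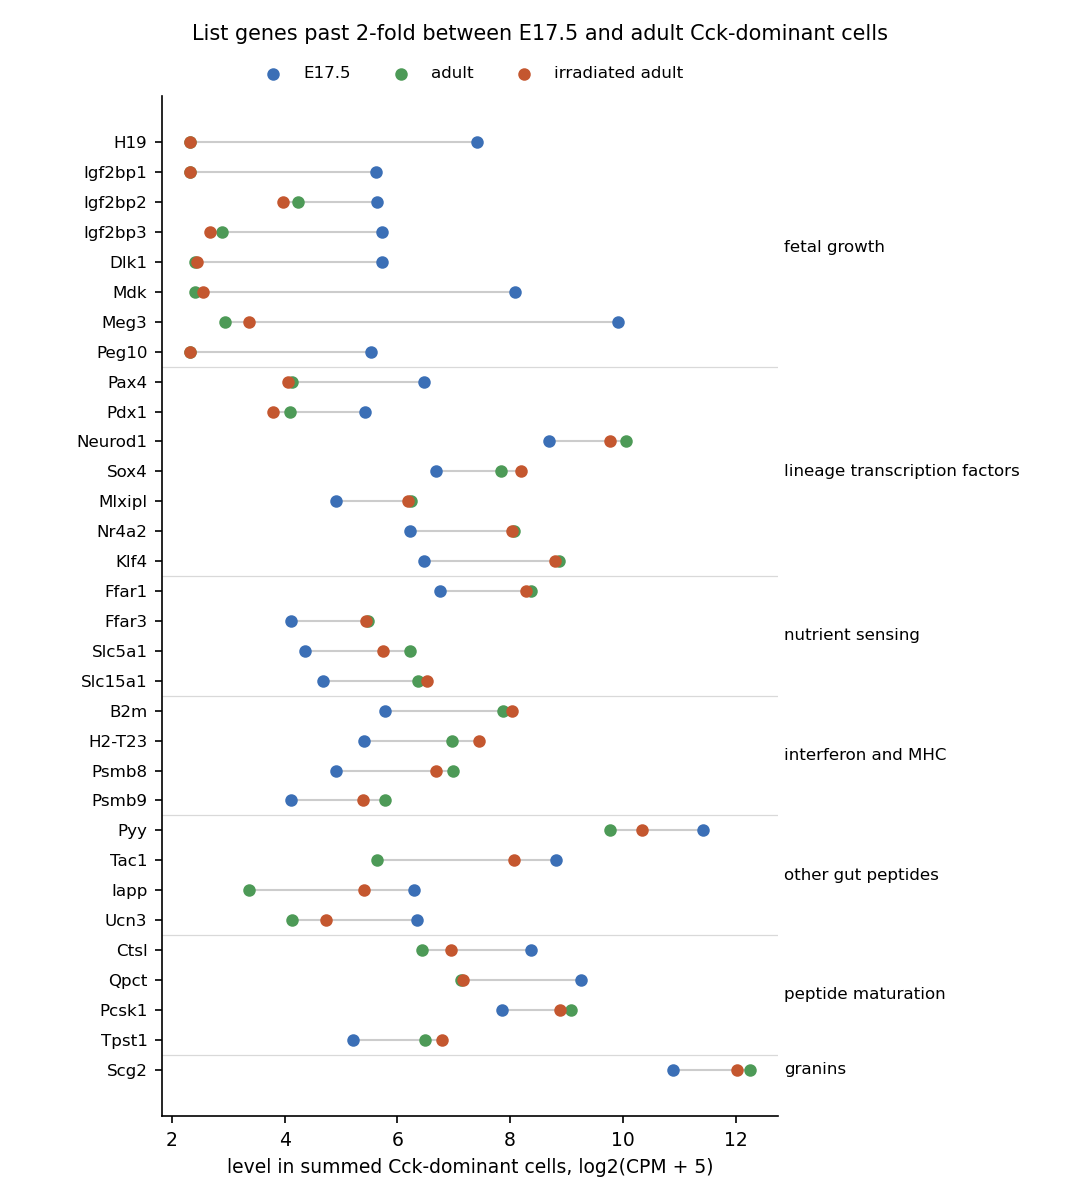
Level of each gene of 7 lists that was past 2-fold between E17.5 and adult, as log2(CPM + 5) in the summed Cck-dominant cells (x axis), with 1 point per library. The fetal growth genes lie left of their E17.5 points in both adult libraries (for H19, Igf2bp1 and Peg10 the adult point is under the irradiated point), and the adult and irradiated points of the 4 nutrient-sensing genes lie closer to each other than to E17.5.

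Many of the largest differences between the stages were in genes known from other cell types. The 10 lowest in the adult included the pancreatic acinar enzymes Ctrb1 (1459 CPM at E17.5, no adult UMI) and Cpa1 (201 CPM, no adult UMI), the lipase relative Pnliprp1 and the colipase Clps (3574, 42.2 and 58.1 CPM). In E17.5 cells led by no hormone Ctrb1 was at 9464 CPM, and the acinar markers summed to 12192 CPM there, 1978 CPM in Cck-dominant cells and 1047 CPM in other hormone-dominant cells. The 10 highest in the adult included the Paneth cell defensins Defa30 (0.276, 1227 and 1710 CPM), Defa24 (62.6, 2304 and 3973 CPM), Defa17, Defa29 and Defa3, near-identical copies among which the counting may split reads. In adult cells led by no hormone Defa30 was at 23469.9 CPM. Paneth markers summed to 4690 CPM in adult Cck-dominant cells and 99679 CPM in cells led by no hormone. Pigr, the polymeric immunoglobulin receptor, was at 2.76, 405 and 299 CPM in Cck-dominant cells and at 27.3, 876 and 327 CPM in cells led by no hormone. The part of RNA from outside the cell in these values was not tested.

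Cck-dominant cells of the irradiated library carried more RNA of p53 target genes, which the transcription factor p53 switches on after DNA damage. At least 2-fold higher in the irradiated library were 77 of 5704 genes (1.35%), and 44 were at least 2-fold lower (0.771%). Of the 28 p53 targets listed, 16 were compared, 8 were higher and none lower, with a list median of 1.04 against 0.03 over all genes compared. Phlda3, Plk2, Aen, Zmat3 and Sesn2 were under 20 CPM in the adult and passed the level filter through the irradiated library. All but Sesn2 were among the 8 that were higher. The members compared are thus not the whole list. Under the 12 alternatives the median lay between 0.68 with no filter on low values and 1.17 with a pseudocount of 1 CPM.

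Phlda3, an inhibitor of the kinase Akt, was at 9.10 CPM at E17.5, 0.297 CPM in the adult (1 UMI) and 86.8 CPM after irradiation. Its ratio of irradiated to adult was 292 (interval 52.3 to 11549). Thinned to 2000 UMIs, 0 of 251 adult cells and 101 of 602 irradiated cells (16.8%) had a Phlda3 UMI, and unthinned these shares were 0.375% and 52.5%. Ccng1, cyclin G1, was at 23.2, 20.2 and 145 CPM, with a UMI after thinning in 3.59% of adult and 24.3% of irradiated cells. Bax, a pro-apoptotic member of the Bcl2 family, was at 250, 121 and 274 CPM, so the E17.5 level was near the irradiated one. Plk2, a polo-like kinase, was at 29.0, 8.32 and 43.7 CPM. The other 4 were the RNA-binding protein Zmat3, the nuclease Aen, the stress cytokine Gdf15 and Dcxr, with log2 ratios of 1.22, 1.35, 1.14 and 1.09, and each of these was under 2-fold with a pseudocount of 20 CPM (0.78, 0.87, 0.93 and 0.86).

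Other p53 targets differed less. Cdkn1a, the cell cycle inhibitor p21, was at 621 CPM at E17.5, 545 CPM in the adult and 858 CPM after irradiation, a log2 ratio of 0.65. Mdm2, the ligase that degrades p53, was at 40.0, 41.0 and 69.8 CPM (0.70), and Btg2 had a log2 ratio of -0.18. In other cells of the same 2 libraries, 8 of the same 16 genes were at least 2-fold higher in Gip-dominant cells (1.36% of all genes there), 7 in Sst-dominant cells (1.68%), 7 in Nts-dominant cells (6.99%) and 13 in tuft reference cells (5.3%). The list medians were 0.99, 0.93, 0.76 and 1.72. Plk2 differed in sign between classes, at log2 ratios of 1.87 in Cck-dominant, 0.81 in Gip-dominant, 0.94 in Sst-dominant, -0.36 in Nts-dominant and -0.78 in tuft reference cells. Whether these classes differ was not tested, since each is 1 library per group.

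**Figure D4:**
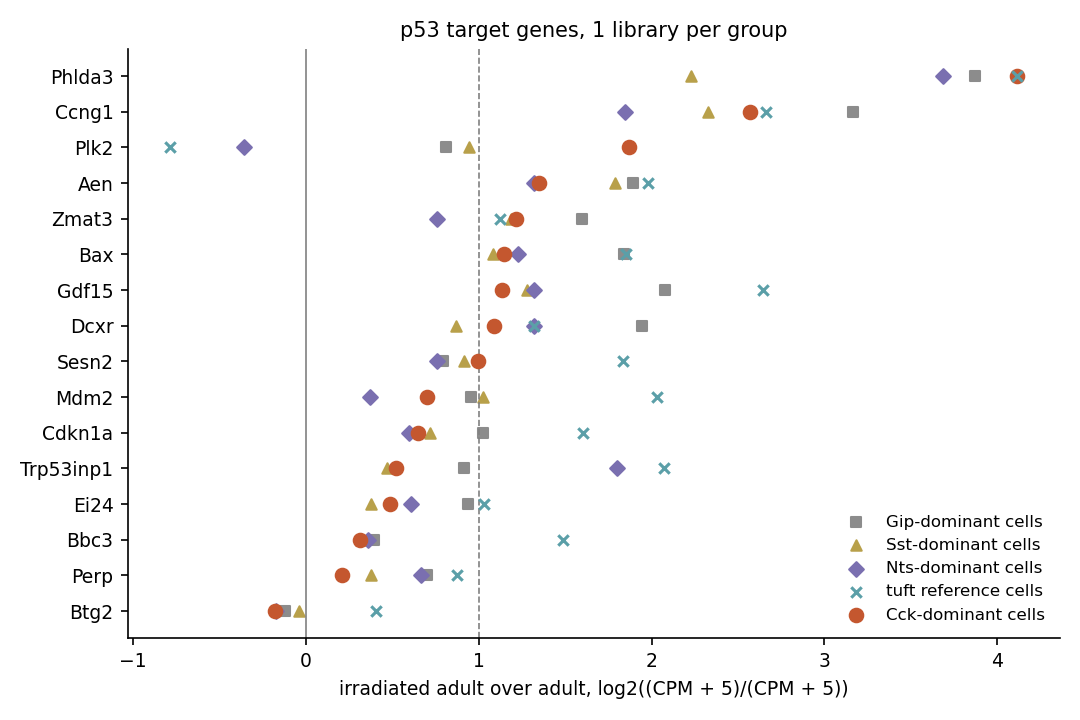
Log2 ratio of irradiated adult over adult on the log2(CPM + 5) scale (x axis) for the 16 compared p53 targets, in Cck-dominant cells (circles) and in Gip-, Sst- and Nts-dominant and tuft reference cells of the same libraries; the dashed line is 2-fold. Phlda3 and Ccng1 lie past 2-fold in every class shown, while Btg2 lies near 0 in Cck-dominant cells (-0.18).

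Hormone and granule genes differed in a few members. Chga, chromogranin A, was at 683 CPM in the adult and 1928 CPM after irradiation, the 1 granin of 7 past 2-fold. Tac1 and Iapp were the 2 of 8 other peptides past 2-fold, Iapp at 5.35 and 37.3 CPM. The log2 ratio of Tac1 was 2.43, and 0.88 over cells with 5000 to 20000 UMIs. Enterochromaffin markers, which include Tac1 and Reg4, all 7 with UMIs, summed to 1152 and 2811 CPM in Cck-dominant cells, 824 and 3406 CPM in other hormone-dominant cells and 4084 and 11485 CPM in cells led by no hormone, and their part in Chga and Tac1 was not tested. No maturation gene of 11 and no exocytosis gene of 21 was past 2-fold, and none of 8 interferon and MHC genes. Of 10 nutrient-sensing genes, Trpm5, a cation channel also known from tuft cells, was past 2-fold, at 9.51 and 53.7 CPM. Tuft markers as a whole, all 10 with UMIs, summed to 151 and 502 CPM in Cck-dominant cells and to 3198 and 1558 CPM in cells led by no hormone, and their part in Trpm5 was not tested. Foxa1 was the 1 lineage factor of 26 past 2-fold (15.2 and 39.7 CPM), and it was under 2-fold with a pseudocount of 20 CPM (log2 ratio 0.76).

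Lipid-handling genes were lower after irradiation in the summed cells, 5 of 11 compared past 2-fold: Apoa1 (331 and 86.3 CPM), Apoa4 (131 and 7.08 CPM), Mttp, Fabp1 (969 and 383 CPM) and Fabp2 (907 and 349 CPM). These ratios differed with the cells used. Over cells with 5000 to 20000 UMIs the list median was -0.07 in place of -0.97, the log2 ratio of Apoa1 was -0.01 in place of -1.88, and none of the 5 was past 2-fold. Over cells with at least 5% Sct the log2 ratio of Apoa1 was 0.90, so that it was higher after irradiation. Apoa1 had a UMI in 25.1% of adult and 27.7% of irradiated cells. Enterocyte markers summed to 4084 and 2369 CPM in Cck-dominant cells and to 9113 and 3354 CPM in cells led by no hormone.

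The 10 highest genes after irradiation were Phlda3, Ccng1 and 8 genes known from other epithelial cells or the liver. Zg16, a goblet granule protein, was at 1.78 CPM in the adult and 1177 CPM after irradiation, with a UMI in 83.1% of irradiated cells. Muc2, Clca1, Guca2a and Spink4 were among them, and so were Reg3b and Reg3g, antimicrobial lectins, and Afp, alpha-fetoprotein. In cells led by no hormone Zg16 was at 46.3 and 9820 CPM, and goblet markers summed to 4628 and 29076 CPM there. In other hormone-dominant cells Zg16 was at 2.41 and 2463 CPM. The same markers summed to 11472 and 13619.6 CPM in Cck-dominant cells, all 7 with UMIs, and the part of RNA from goblet cells in Zg16, Muc2 and the like was not tested. Reg4, which enterochromaffin and goblet cells make, was at 423 and 1619 CPM in Cck-dominant cells and at 2714 and 8759 CPM in cells led by no hormone. Reg3b and Reg3g were under 2-fold over cells with Cck of at least 5% (log2 ratios 0.59 and 0.89), and Spink4 over cells with Sct of at least 5% (0.94).

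The 10 lowest after irradiation included Olfm4, a crypt stem cell gene, at 73.1 and 1.58 CPM. In cells led by no hormone Olfm4 was at 798 and 14.3 CPM. Reg1 was at 72.8 and 2.96 CPM and Arg2 at 55.0 and 0.951 CPM. Ccl25 was at 71.6 and 11.8 CPM. Over cells with 5000 to 20000 UMIs the log2 ratio of Arg2 was -0.84 in place of -3.33 and that of Ccl25 -0.53 in place of -2.19. Ftl1-ps1, Rnaset2b and Adh6a have near-identical relatives among which the counting may split reads, and their values are uncertain.

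The reporter and its locus were low in these cells. The eGFP transcript was at 1.10 CPM at E17.5, 1.49 CPM in the adult and 13.6 CPM after irradiation in Cck-dominant cells and at 0.982, 1.68 and 10.2 CPM in cells led by no hormone, so the irradiated library was the highest in both pools. Bmi1 itself was at 13.5, 11.9 and 16.2 CPM against 9.40, 10.1 and 12.2 CPM.

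The remaining lists concern position along the gut, feedback, excitability, defence and stress. Of 6 compared proximal gut genes Pdx1 was past 2-fold lower in the adult than at E17.5, and of 5 compared between the adult libraries Fabp1 was past 2-fold lower after irradiation, with the values given above. Gata4 was at 25.1 CPM at E17.5, 22.9 CPM in the adult and 28.5 CPM after irradiation and Onecut2 at 193, 229 and 234 CPM. Of 22 listed distal gut genes only Cdx1 and Cdx2 reached the level filter, Cdx1 at 32.8, 74.0 and 70.2 CPM. Of the receptors for feedback signals, the somatostatin receptor Sstr5 was at 30.9, 49.9 and 52.5 CPM, the galanin receptor Galr1 at 17.6, 15.2 and 39.0 CPM and the prostaglandin receptor Ptger3 at 30.9, 11.6 and 8.13 CPM. Among 15 compared excitability genes 1 was past 2-fold between the stages, the sodium channel gene Scn9a (49.9, 9.51 and 17.1 CPM), and none of 16 between the adult libraries. Of 13 compared antimicrobial and redox genes, Reg1, Reg4, Gpx2 and Sod1 were higher in the adult than at E17.5 and Gpx3 lower, with a list median of -0.13. Of 15 compared between the adult libraries, Reg3b, Reg3g and Reg4 were higher after irradiation and Reg1 lower. Between the stages Reg1 turned sign under the stricter cell filter (log2 ratio -0.68 in place of 1.70). Of 18 compared early response genes, which tissue dissociation also induces, 5 were higher in the adult than at E17.5 (Fosb, Atf3, Nr4a1, Klf2 and Klf6) and 2 lower (Ier3 and Hspa1a). With a pseudocount of 20 CPM the log2 ratios of Atf3, Klf6 and Hspa1a were 0.99, 0.96 and -0.98, and those of Cdx1 and Ptger3 between the stages and of Galr1 with irradiation were 0.83, -0.69 and 0.75. None of 16 early response genes was past 2-fold with irradiation. None of 14 compared ER stress genes and none of 7 compared Polycomb genes was past 2-fold in either comparison. Bmi1 and the eGFP reporter were under the level filter and were not among the genes compared.

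Within the Cck-dominant cells, Sct ranged widely. Cells with Sct under 2% of UMIs were 22 of 340 at E17.5 (6.47%), 34 of 267 in the adult (12.7%, interval 8.98 to 17.3%) and 218 of 726 after irradiation (30.0%, 26.7 to 33.5%). The limits of 2% and 5% used here were chosen after the values were seen. Just under the limit (1 to 2%) were 15, 18 and 65 cells and just above it (2 to 3%) 20, 20 and 21. Over cells with 5000 to 20000 UMIs the irradiated share was 22.4%, which is not to be set against the adult share over all depths. At these depths 23 adult cells were under 2% and 113 had at least 5% Sct, against 101 and 307 irradiated cells. At E17.5, 10 of the 22 low-Sct cells had doublet scores among the highest, against 5 of 247 high-Sct cells. Of these 22 low-Sct cells, 8 had at least 20000 UMIs. In the adult, 4 of 34 low-Sct and 7 of 183 high-Sct cells had such scores (11.8% and 3.83%). After irradiation 15 of 218 and 33 of 430 had them (6.88% and 7.67%). The split is described below for the 2 adult libraries with E17.5 beside it. The part of doublets in its gene differences was not tested.

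Low-Sct cells of the irradiated adult were rich in Gcg. Gcg was 3.06% of their summed UMIs against 0.190% in cells with at least 5% Sct, and 64.2% of low-Sct cells (140 of 218) held Gcg at 0.5% of UMIs or more against 7.91% (34 of 430). In the adult the values were 1.33% and 0.357% of UMIs, and 41.2% and 16.9% of cells. At E17.5 the order was the other way, at 0.159% and 0.345% of UMIs. Nts went with Sct in all 3 libraries, at 0.0131% of UMIs in low-Sct and 0.961% in high-Sct cells at E17.5, 0.164% and 0.746% in the adult, and 0.0530% and 0.518% after irradiation. The E17.5 low-Sct value rests on 51 UMIs. Over cells with 5000 to 20000 UMIs the log2 ratio of Nts in low-Sct over high-Sct cells was -0.77 in place of -2.18 in the adult. After irradiation it was -3.14 in place of -3.28. Across cells, Spearman's rho of Sct with Gcg was -0.18, -0.01 and -0.42, and of Sct with Nts 0.29, 0.26 and 0.20 (340, 267 and 726 cells). These are descriptions over cells that share a library and whose percentages share a total. Gcg and Nts were also genes of the rule, which kept both under Cck in every member.

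**Figure D5:**
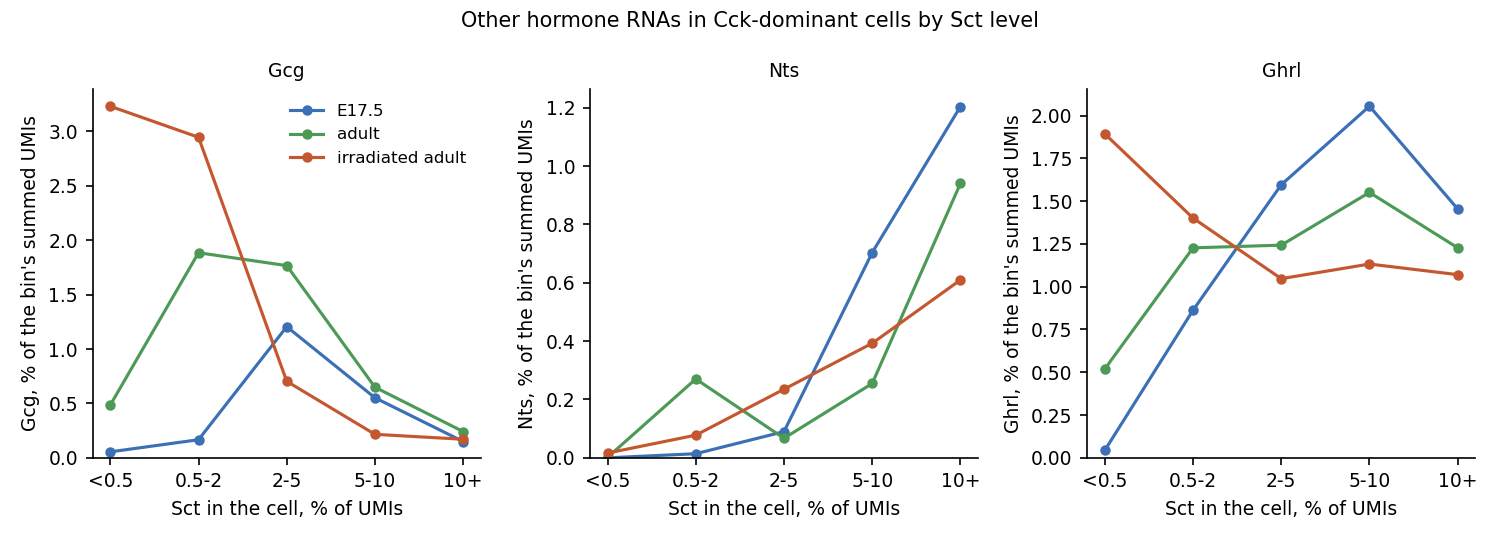
Gcg, Nts and Ghrl as percent of the summed UMIs of Cck-dominant cells (y axis) in 5 bins of the cell's Sct level (x axis), with 1 line per library. Gcg is highest in the lowest bins of the irradiated library (3.23% below 0.5% Sct), and Nts is highest in the top bin of each library; the lowest bins at E17.5 and in the adult hold only 2 and 7 cells.

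Apart from Sct, 53 genes were at least 2-fold higher and 38 at least 2-fold lower in low-Sct than in high-Sct cells in both adult libraries (0.982% and 0.704% of 5395 genes compared). Gcg was among the 53 and Nts among the 38, and both are genes of the rule that chose the cells. Over cells with 5000 to 20000 UMIs, 29 of the 53 and 31 of the 38 were still past 2-fold. Those higher in high-Sct cells included Id1, Id2, Id3 and Smad7, which are known targets of bone morphogenetic protein signalling. Id1 was at 1001 CPM in high-Sct and 211 CPM in low-Sct adult cells, at 975 and 161 CPM after irradiation, and at 723 and 211 CPM at E17.5. Id2 and Id3 had log2 ratios of -1.17 and -1.44 in the adult, -2.36 and -2.58 after irradiation and -1.45 and -1.61 at E17.5. Smad7 was at 77.6 CPM in high-Sct and 19.04 CPM in low-Sct cells of the adult and at 71.8 and 21.8 CPM after irradiation, but at 40.8 and 43.7 CPM at E17.5.

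Other genes that went with Sct were Rflna, a filamin regulator, at 220 CPM in high-Sct and 22.5 CPM in low-Sct adult cells and at 299 and 14.4 CPM after irradiation. Gsdma, a gasdermin, was at 233 and 13.8 CPM and at 241 and 35.9 CPM. Nt5e, the surface enzyme that makes adenosine, was at 147 and 22.5 CPM and at 192 and 26.1 CPM. The transcription factor genes Prrx2 and Tbx3 were in the same set, with log2 ratios of -2.90 and -2.43 in the adult, -2.76 and -1.81 after irradiation and -2.81 and -1.39 at E17.5. Klf4 was at 506 and 234 CPM in the adult and at 544 and 190 CPM after irradiation. Syt7, a calcium sensor of exocytosis, was the 1 exocytosis gene of 19 past 2-fold in both adult libraries, at 158 and 71.0 CPM and at 258 and 95.1 CPM.

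Among the genes higher in low-Sct cells was Cd44, a surface glycoprotein. Cd44 was at 57.1 CPM in low-Sct and 11.0 CPM in high-Sct adult cells and at 33.5 and 6.78 CPM after irradiation. The transcription factor gene Sox9 was at 34.6 and 7.21 CPM and at 74.4 and 17.8 CPM. Both were past 2-fold in these 2 libraries over cells with 5000 to 20000 UMIs as well, at log2 ratios of 2.06 and 1.15 for Cd44 and 1.57 and 2.18 for Sox9. Both are known from crypts, and so is Axin2, which was lower in low-Sct cells, at 43.3 and 83.5 CPM in the adult and at 27.3 and 70.7 CPM after irradiation. Ccnd1, cyclin D1, did not keep its difference there, with log2 ratios of 0.06 and 0.86 in place of 2.38 and 1.87, and neither did the stress gene Sfn, with -0.12 and 0.00 in place of 1.70 and 1.96. Tac1 was at 222 and 6.36 CPM in the adult and at 619 and 113 CPM after irradiation, but at 51.4 and 538 CPM at E17.5. Nkx2-2 was the 1 lineage factor of 25 that was higher in both adult libraries, at 111 and 51.3 CPM and at 128 and 54.7 CPM.

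The p53 targets Phlda3 and Ccng1 were higher after irradiation in both subsets. Phlda3 was at 1.73 CPM in low-Sct and 0 CPM in high-Sct adult cells and at 104 and 76.1 CPM in the irradiated ones, where 51.4% and 53.5% of cells had a UMI. Ccng1 was at 13.8 and 21.2 CPM in the adult and at 185 and 125 CPM after irradiation. Gdf15 was the p53 target of 10 compared that was past 2-fold higher in low-Sct cells in both adult libraries, at 86.5 and 28.0 CPM and at 161 and 67.3 CPM.

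Few Cck-dominant cells showed mitotic RNA. At least 3 UMIs of the 15 G2 and mitosis genes were found in 7.35% of cells at E17.5 (25 of 340), 2.25% in the adult (6 of 267) and 0.413% after irradiation (3 of 726). Thinned to 2000 UMIs, the counts were 6 of 338, 2 of 251 and 1 of 602. The E17.5 cells with such UMIs were deep, with a median of 18954 UMIs, and without the cells of highest doublet score the mitotic gene Ube2c was no longer lower in the adult (log2 ratio 0.27 in place of -1.31).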

How the data were processed

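The deposited files hold raw UMI counts per gene and cell barcode for 4 libraries, 31054 features each, made by the authors with Cell Ranger 3.1.0 on mm10, per the submitters' processing notes; other settings are not given in the sources used here. The counts were read as deposited, and 15800 barcodes passed the filter on genes and mitochondrial UMIs. Members were chosen by the rule given at the start, and 1 cell in which Cck tied with another of the 6 hormones was left out. UMIs were summed per library over members and divided by the total (CPM), and ratios are log2 of (CPM + 5) for genes with a mean of at least 20 CPM over both libraries. A gene can pass this filter through the library where it is high. Called means at least 2-fold.

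Replicates were lacking, so no test was made. Summed members held 3626101 UMIs at E17.5, 3363800 in the adult and 9467489 after irradiation. Named genes were the 10 with the largest ratio in each direction of each comparison, the members of 19 gene lists (388 entries), the 12 with the largest smaller difference per direction between low- and high-Sct cells, and those said to be chosen after their values were seen. Of these, 1 gene is not reported here. Members and lists were chosen with earlier results of these data known. The script was tested on simulated data.

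Doublets were kept, since Scrublet's automatic limit marked 26, 3 and 1 cells (under 0.5% in both adult libraries). Removing the highest scores, at 0.8% per 1000 barcodes, was an alternative. Tuft reference cells had UMIs of at least 3 of Dclk1, Trpm5, Avil, Rgs13, Sh2d6 and Alox5ap. Mesenchymal reference cells had UMIs of at least 3 of Col1a1, Col1a2, Col3a1, Dcn and Lum. Both were taken from the cells led by no hormone. Summed marker levels used 12 marker lists. Alternatives were TMM factors, per-cell means, other pseudocounts, filters, Cck limits and depths. The E12.5 library entered only the count of members. Tools were R 4.3.3 with edgeR 4.0.16 (TMM only), scanpy 1.11.5 for Scrublet, and pandas 2.3.3, numpy 2.4.6, scipy 1.17.1 and matplotlib 3.10.9 under python 3.11.15.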

Additional observations from a re-analysis of the deposited data

Results flagged for a closer look

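Barcodes that failed the cell filter held Cck-led profiles too. At E17.5, 5 of 630 such barcodes (0.794%) were led by Cck with at least 2% of UMIs, in the adult 61 of 2499 (2.44%) and in the irradiated adult 251 of 2812 (8.93%), while the E12.5 library had 0 of 990, which allows up to 0.303%. The irradiated ones had a median of 712 UMIs and 6.17% mitochondrial UMIs, and 167 of them had fewer than 1000 UMIs. The adult ones had a median of 2433 UMIs and 28.0% mitochondrial UMIs. What these barcodes hold was not tested.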

How the results depend on the processing

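No paired analysis was possible because each group was 1 library. The adult library was the shallowest, and its share of Cck-dominant cells moved with depth. Genes with a few UMIs have wide intervals. The limits on depth of 5000 and 20000 UMIs, the Sct limits and the restriction to high Sct were chosen after seeing the data; the cause of each shift was not tested. Of 108 alternative values for the main quantities, 67 stayed within counting error or 1.5 times and 41 moved. The share of Cck-dominant cells, 7.39% at E17.5, 7.05% in the adult and 22.8% after irradiation, was 6.59%, 5.22% and 16.3% over every deposited barcode, 6.26%, 5.41% and 18.7% with Cck of at least 5%, and 8.20%, 13.0% and 25.9% over cells with at least 5000 UMIs. In the adult and irradiated libraries it was 12.7% and 28.7% with at least 1000 genes and at most 10% mitochondrial UMIs, and 8.05% and 24.9% with Cck of at least 1%; thinned to 2000 UMIs the adult share was 8.06%. The irradiated share was the highest in all of these. The share of cells with a Sct UMI was 100% at E17.5 without thinning, thinned to 1000 UMIs, with Cck of at least 5% and with doublets removed, and in the irradiated library 100% without thinning, 98.8% at 1000 UMIs and 100% with Cck of at least 5%. The share of cells under the Sct limit was 2.06%, 5.99% and 21.1% with a limit of 1%, and at E17.5 and in the adult 12.4% and 20.2% with 3%. At E17.5 it was 3.80% with doublets removed and 3.12% with Cck of at least 5%. In the irradiated library it was 25% with at least 5000 UMIs, 22.4% with 5000 to 20000, 25.8% with the stricter cell filter and 24.4% with Cck of at least 5%.

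Between E17.5 and adult, 146 genes were higher and 130 lower with a pseudocount of 20 CPM, and 531 and 527 with no filter on low values. Between the adult libraries, 140 were higher and 111 lower with no filter, 43 and 25 over cells with 5000 to 20000 UMIs, and 25 were lower over cells with Sct of at least 5%. Of 69 named genes past 2-fold between the stages, 55 were so in all 11 alternatives, and of 38 between the adult libraries 19 were. Signs reversed for Reg1 between the stages (-0.68 with the stricter cell filter, -0.39 over 5000 to 20000 UMIs), Ube2c between the stages (0.27 with doublets removed, 0.014 over 5000 to 20000 UMIs) and Apoa1 between the adult libraries (0.90 over cells with Sct of at least 5%).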
